A study of Mus musculus with 4 samples.

Results

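The DNA replication machinery was followed as 39 genes, chosen by symbol for their roles in origin licensing, the replication fork, DNA synthesis and the supply of nucleotides. All 39 were found among the 22609 genes counted, and all 39 were kept for testing because they had at least 20 counts in at least 1 library. RNA came from 7-day mammospheres, colonies grown in suspension from sorted basal cells of the mammary gland, taken at 4 months of age from Balb/C mice. All mice were gavaged daily from day 21 for 3 weeks, with sesame oil in the control and DMBA groups and with bisphenol A (BPA), a compound used in plastics that acts as a weak estrogen, at 25 µg/kg/day in the BPA and BPA+DMBA groups. At 2 months the DMBA and BPA+DMBA groups also received the carcinogen dimethylbenz[a]anthracene (DMBA), as 1 gavage of 30 mg/kg, and all groups were kept on a low-phytoestrogen diet. Each group was 1 library of spheres pooled from 5 animals, so no group had replicates.

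Before a cell copies its DNA, the origin recognition complex with Cdc6 and Cdt1 loads the ring-shaped MCM helicase onto origins. In S phase the helicase is switched on by Cdc45 and the GINS complex, primase lays down short primers, and polymerases bound to the sliding clamp extend them. Most of these genes are transcribed periodically in cycling cells under E2F transcription factors, so they are commonly read as markers of cells in or near S phase, and in bulk RNA more cells in S phase and more of these transcripts per cell cannot be told apart.

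Because many of the genes rose together with DMBA (values follow), their promoters were searched for words bound by cell cycle regulators. RefSeq promoters (build GRCm38.p6, 250 bases before to 50 after each start) were matched by symbol for 31 of the 39 genes. They are a newer build than the mm9 named for the counts and are used for sequence only. The E2F words were TTTCCCGC, TTTCGCGC, TTTGCCGC and TTTGGCGC on either strand, and 12 of 36 member promoters (33.3%) held one, against 2.26% of all 32851 promoters. The NF-Y word CCAAT, on either strand, was in 58.3% of member promoters and 37.4% of all promoters. The CHR word TTTGAA, found in promoters of genes expressed late in the cycle, was in 13.9% and 17.9%. Median GC content was 58.8% in member promoters and 52.7% in all promoters. In 20 mitotic marker genes, of which 17 matched, the pattern was different: 5.56% of promoters held an E2F word, 88.9% CCAAT and 72.2% TTTGAA, at a median GC content of 61.3%. These are matches of letters and not measured binding.

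The promoters with most E2F words in up to 4 role groups show how these words lie relative to the start (ties were broken by symbol). E2F words are in capitals, and each line runs 5′ to 3′ on the gene's own strand. The start lies after the first 250 bases.
Mcm6, chr1:128359656-128359955, minus strand: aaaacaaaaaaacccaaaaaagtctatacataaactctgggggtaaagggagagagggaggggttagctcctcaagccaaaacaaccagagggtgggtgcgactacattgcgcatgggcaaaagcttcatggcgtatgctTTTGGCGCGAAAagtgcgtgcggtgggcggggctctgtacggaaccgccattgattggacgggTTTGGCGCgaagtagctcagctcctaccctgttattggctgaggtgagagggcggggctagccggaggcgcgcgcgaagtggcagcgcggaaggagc
Rfc3, chr5:151651159-151651458, minus strand: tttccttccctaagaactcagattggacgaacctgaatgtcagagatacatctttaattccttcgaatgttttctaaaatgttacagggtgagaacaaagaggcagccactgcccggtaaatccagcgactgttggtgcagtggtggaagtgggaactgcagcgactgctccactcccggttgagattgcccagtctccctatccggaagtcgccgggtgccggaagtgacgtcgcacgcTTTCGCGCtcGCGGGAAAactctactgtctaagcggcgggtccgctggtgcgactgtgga
Cdc6, chr11:98907901-98908200, plus strand: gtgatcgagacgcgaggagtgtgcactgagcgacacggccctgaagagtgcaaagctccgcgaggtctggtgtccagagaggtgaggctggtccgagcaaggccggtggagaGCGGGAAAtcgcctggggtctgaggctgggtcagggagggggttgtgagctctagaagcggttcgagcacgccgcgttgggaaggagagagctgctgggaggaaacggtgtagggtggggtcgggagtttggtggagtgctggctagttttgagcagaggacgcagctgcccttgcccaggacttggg
Gins3, chr8:95633309-95633608, plus strand: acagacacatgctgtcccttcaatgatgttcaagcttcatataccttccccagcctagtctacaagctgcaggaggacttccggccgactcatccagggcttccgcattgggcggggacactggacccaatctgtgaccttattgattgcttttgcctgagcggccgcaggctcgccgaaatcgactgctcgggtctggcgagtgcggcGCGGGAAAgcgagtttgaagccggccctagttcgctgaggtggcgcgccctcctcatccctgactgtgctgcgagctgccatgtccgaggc
In Mcm6 the first stretch in capitals is 2 overlapping matches, 1 on each strand, and another word begins 47 bases before the start. In Rfc3 a forward and a reverse match flank a dinucleotide at the start itself. In Cdc6 and Gins3 the single match is the reverse complement GCGGGAAA.

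**Figure D1:**
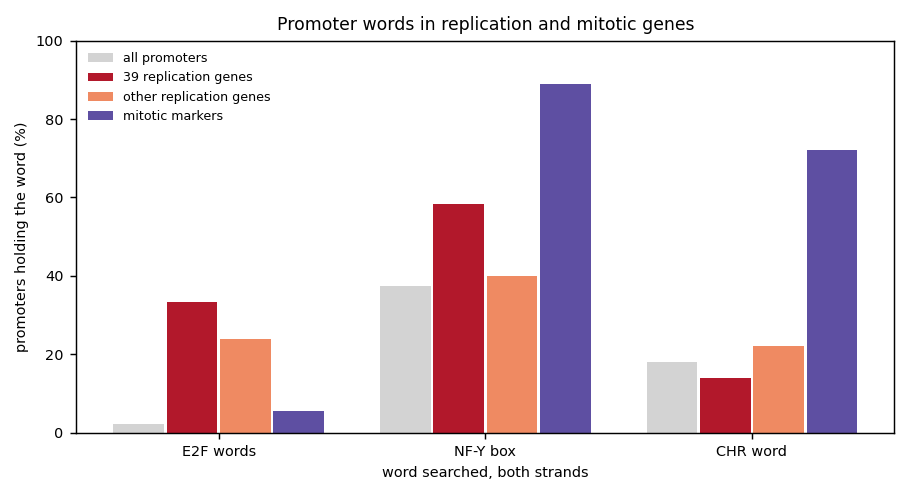
Percentage of RefSeq promoters that hold an E2F word, the NF-Y box or the CHR word on either strand, for all promoters, the 39 replication genes, other replication genes and mitotic markers. E2F words are in 33.3% of member promoters and 5.56% of mitotic marker promoters, while the CHR word is in 13.9% and 72.2%.

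Counts assigned to genes ranged from 15672532 in BPA+DMBA to 30627055 in control, and the replication genes had between 49 counts (Gins1 in control) and 3418 counts (Rrm1 in DMBA) in a library. Levels are given as CPM, read counts scaled to library size with TMM factors. The basal keratins Krt5 and Krt14 and the basal factor Trp63 were present in every library, and so were luminal keratins. Per kilobase of transcript, Krt18 of luminal cells was at 714 CPM and Krt14 at 176 CPM in control. With DMBA they were at 604 and 517 CPM per kilobase. Each is 1 gene from a list of 12 markers. Summed without length scaling, the luminal list was at 5076 CPM and the basal list at 1646 CPM in control. The 2 sums were 5566 and 1850 in BPA, 4760 and 3777 in DMBA, and 4716 and 3191 in BPA+DMBA. The labelled basal origin and the markers in the spheres therefore do not coincide fully.

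The DMBA comparison asks whether the carcinogen, given 2 months before the glands were taken, left the replication genes of the cultured spheres at another level. The differences went in one direction: 20 of 39 (51.3%) rose, 0 fell, and 18 of the 19 that did not pass also had positive values. With 1 pooled library per group, an effect of DMBA cannot be told apart from a difference between pools or cultures. All 6 MCM helicase subunits and all 4 nucleotide supply genes rose, while 1 of 4 licensing, 1 of 6 helicase activation, 2 of 6 clamp and loader, 4 of 8 polymerase and primase, 1 of 3 RPA and 1 of 2 fragment joining genes did. Changes were modest, with a median log2 change of 0.49 against -0.0025 for all 13638 genes tested, and 0.57 among the 20 that rose. By the same call 6.67% of all genes rose and 7.72% fell (14.4% in either direction). The summed level of the 39 genes was 901 CPM in control, 982 with BPA, 1289 with DMBA and 1272 with both. For 37 of 39 genes both DMBA-exposed libraries lay above both unexposed ones. That order was not counted over all genes, so it has no background share, here or in the role groups below. The test was edgeR's quasi-likelihood test in a model with additive terms for BPA and DMBA, and p-values were adjusted by Benjamini-Hochberg across the genes tested, with a threshold of 0.05. For each gene the interaction (1 degree of freedom) stands in place of replicates as the estimate of spread. The test combines it with spread shared across all genes tested, so each p-value also rests on other genes. The count depended on the test and on the control library: DESeq2 called 4 genes (Mcm3, Mcm5, Mcm6 and Rrm2), and removal of a trend with transcript length left 13. A fit with DMBA as the only term called 26, and the same fit without the control library called 8. In any such fit with 1 library left out, 1 side of the comparison is a single library, and the spread comes from the other side alone. The cause of the differences between settings was not tested.

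**Figure D2:**
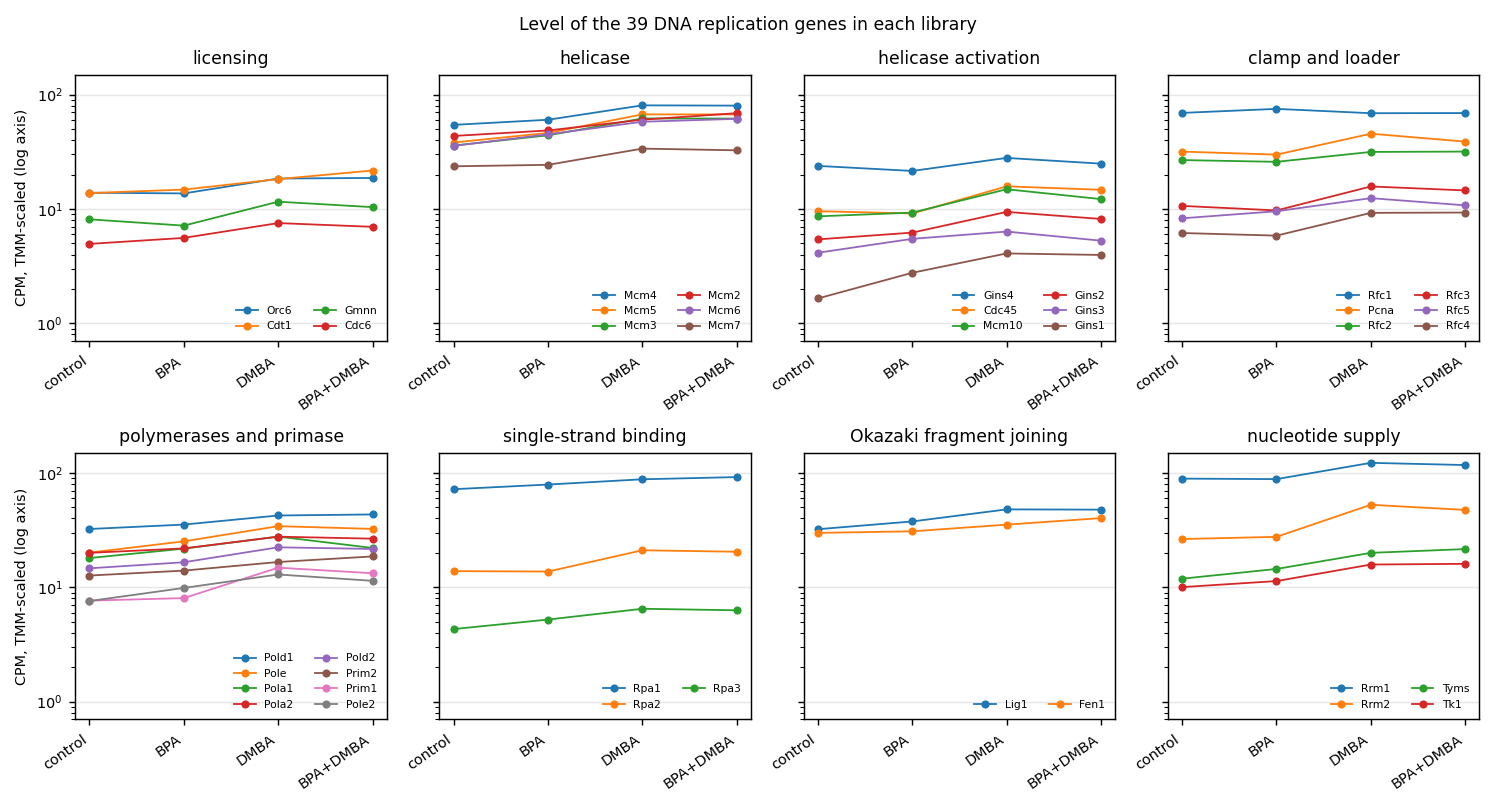
TMM-scaled CPM (log axis) of each of the 39 replication genes in the control, BPA, DMBA and BPA+DMBA libraries, in 8 panels by role, 1 point per library joined by lines for reading only. In the helicase panel every gene is higher in both DMBA-exposed libraries, while Rfc1 in the clamp and loader panel is level across all 4.

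Licensing genes set where replication may start. Cdt1, which brings the helicase to the origin, was at 13.8 CPM in control, 14.8 in the BPA library, 18.3 in DMBA and 21.7 in BPA+DMBA. It was the 1 licensing gene of 4 to rise (log2 0.48, SE 0.117, adjusted p = 0.0429). Gmnn encodes geminin, the inhibitor of Cdt1, and had 8.12, 7.16, 11.6 and 10.4 CPM in the same order (log2 0.52, SE 0.149, adjusted p = 0.0638). Both the loader and its inhibitor were highest in the DMBA-exposed libraries. Cdt1 passed under 4 of the 10 alternative settings and Gmnn under 3. Orc6, a subunit of the origin recognition complex, had 13.9, 13.7, 18.5 and 18.7 CPM (log2 0.43, SE 0.116, adjusted p = 0.0560). Cdc6, the ATPase that works with that complex, had 4.96, 5.59, 7.53 and 6.99 CPM (log2 0.47, SE 0.184, adjusted p = 0.139). For all 4 genes the exposed and unexposed libraries did not overlap.

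The MCM helicase is a ring of 6 related subunits, and all 6 rose within a narrow range of log2 values, 0.47 to 0.68, with adjusted p from 0.0105 to 0.0266. Mcm5 changed most, from 38.2 CPM in control and 46.3 in BPA to 67.2 in both DMBA and BPA+DMBA (log2 0.68, SE 0.0949, adjusted p = 0.0105). Mcm7 changed least, at 23.6, 24.3, 33.8 and 32.6 CPM (log2 0.47, SE 0.0955, adjusted p = 0.0266). Mcm3 and Mcm5 passed under all 10 alternative settings, Mcm4 and Mcm6 under 9, and Mcm2 and Mcm7 under 8. Per kilobase of transcript the subunits were within about a factor of 2 of each other in every library, from 7.98 CPM (Mcm7) to 15.2 CPM (Mcm4) in control and from 11.4 to 22.5 CPM in DMBA. The ratio of the highest to the lowest was 1.90 in control, 2.05 in the BPA library, 1.97 in DMBA and 2.03 in BPA+DMBA. Mcm4 was highest and Mcm7 lowest per kilobase in all 4 libraries, while the order of the others differed: Mcm2 was next to the highest in control and next to the lowest in DMBA.

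Values for helicase activation genes were spread widely, from a log2 change of 0.22 for Gins4 to 0.93 for Gins1. Cdc45, which joins the MCM ring and GINS in the active helicase, was at 9.57 CPM in control, 9.14 in the BPA library, 15.8 in DMBA and 14.7 in BPA+DMBA. It was the 1 gene of 6 in the group to rise (log2 0.71, SE 0.132, adjusted p = 0.0211). Mcm10, a replication initiation factor, had 8.63, 9.30, 14.9 and 12.2 CPM and lay at the threshold (log2 0.60, SE 0.157, adjusted p = 0.0502).
The 4 GINS subunits form 1 complex. Their log2 values ran from 0.22 to 0.93, none passed, and the differences between them were not tested. Gins1 had the highest log2 value of all 39 genes at 0.93, yet it was also the gene with fewest counts (49, 53, 114 and 63) and did not pass (SE 0.284, adjusted p = 0.0779). Gins2 had 5.43, 6.22, 9.44 and 8.18 CPM (log2 0.61, SE 0.184, adjusted p = 0.0747). Gins3 had 4.15, 5.49, 6.35 and 5.29 CPM (log2 0.31, SE 0.229, adjusted p = 0.407). Its BPA+DMBA library lay below its BPA library, which makes it one of the 2 genes whose exposed and unexposed libraries overlapped. Gins4 had 23.8, 21.5, 28.0 and 24.9 CPM (log2 0.22, SE 0.0986, adjusted p = 0.183).

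The sliding clamp Pcna, which tethers polymerases to DNA, was at 31.8 CPM in control, 29.9 in the BPA library, 45.6 in DMBA and 38.8 in BPA+DMBA, and rose (log2 0.45, SE 0.0905, adjusted p = 0.0257). Of the 5 subunits of replication factor C, which loads that clamp, Rfc3 rose: it had 10.7, 9.72, 15.7 and 14.5 CPM (log2 0.57, SE 0.129, adjusted p = 0.0349). The other small subunits, which are also shared by loaders other than the Rfc1 complex, had positive values that did not pass. Rfc4 had 6.17, 5.85, 9.26 and 9.32 CPM (log2 0.62, SE 0.164, adjusted p = 0.0518). Rfc5 had 8.29, 9.56, 12.4 and 10.8 CPM (log2 0.39, SE 0.164, adjusted p = 0.162). Rfc2 had 26.8, 25.9, 31.6 and 31.8 CPM (log2 0.27, SE 0.0939, adjusted p = 0.111). Rfc1, the large subunit of the main loader, was the exception among the 39 genes, at 69.3, 75.1, 68.8 and 69.1 CPM (log2 -0.06, SE 0.0756, adjusted p = 0.604). It was well counted, with 2055 counts in control and 1097 in BPA+DMBA.

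Primase and the polymerases make the new strands. Prim1, the catalytic primase subunit, was at 7.65 CPM in control, 8.05 in the BPA library, 14.9 in DMBA and 13.3 in BPA+DMBA, and rose (log2 0.85, SE 0.146, adjusted p = 0.0170). Prim2, its partner, had 12.7, 14.0, 16.6 and 18.6 CPM (log2 0.40, SE 0.118, adjusted p = 0.0705). In the polymerase alpha enzyme that primase belongs to, the catalytic subunit Pola1 had 18.03, 21.8, 27.8 and 22.1 CPM (log2 0.34, SE 0.156, adjusted p = 0.201). Its BPA+DMBA library was close to its BPA library, with the DMBA library alone high. Pola2, the accessory subunit, had 20.0, 21.9, 27.7 and 26.6 CPM (log2 0.38, SE 0.106, adjusted p = 0.0606). Of the replicative polymerases, Pole (leading strand) had 20.1, 25.2, 34.3 and 32.4 CPM and rose by a log2 change of 0.57 (SE 0.124, adjusted p = 0.0315), and its subunit Pole2 had 7.58, 9.88, 13.0 and 11.4 CPM (log2 0.50, SE 0.180, adjusted p = 0.113). Pold1, at 32.4, 35.4, 42.5 and 43.4 CPM, and Pold2, at 14.7, 16.6, 22.4 and 21.7 CPM, both of polymerase delta, which copies the lagging strand, rose by 0.34 (SE 0.0868, adjusted p = 0.0456) and 0.50 (SE 0.117, adjusted p = 0.0378). Pold1 had the smallest change of the 20 genes that rose.

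RPA coats the single-stranded DNA that the helicase exposes. Its middle subunit Rpa2 was at 13.9 CPM in control, 13.7 in the BPA library, 21.1 in DMBA and 20.5 in BPA+DMBA, and rose (log2 0.59, SE 0.113, adjusted p = 0.0227). The large subunit Rpa1 had 72.1, 79.2, 88.1 and 92.0 CPM (log2 0.25, SE 0.0714, adjusted p = 0.0628), and the small subunit Rpa3 had 4.31, 5.23, 6.49 and 6.30 CPM (log2 0.44, SE 0.195, adjusted p = 0.183). All 3 were higher in both exposed libraries than in both unexposed ones. Of the enzymes that finish lagging-strand fragments, the ligase Lig1 had 32.2, 37.7, 48.0 and 47.8 CPM and rose (log2 0.46, SE 0.0947, adjusted p = 0.0271). The flap nuclease Fen1 had 29.9, 30.9, 35.3 and 40.3 CPM (log2 0.31, SE 0.0924, adjusted p = 0.0737).

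Nucleotide supply included the member with the smallest adjusted p. Rrm2, the regulated subunit of ribonucleotide reductase, was at 26.4 CPM in control, 27.6 in the BPA library, 52.7 in DMBA and 47.5 in BPA+DMBA (log2 0.89, SE 0.0951, adjusted p = 0.00566), and it passed under all 10 alternative settings. Rrm1, the large subunit of the same enzyme, moved less, at 89.3, 88.4, 123 and 117 CPM (log2 0.43, SE 0.0686, adjusted p = 0.0134). Both enzymes of thymidine nucleotide supply rose, thymidylate synthase Tyms (11.9, 14.5, 20.0 and 21.6 CPM) by 0.67 (SE 0.119, adjusted p = 0.0188) and thymidine kinase Tk1 by 0.58 (SE 0.130, adjusted p = 0.0339).

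Among the genes that rose and are not yet given by setting, Cdc45, Prim1 and Rrm1 passed under 9 of the 10 alternative settings, Pole, Rpa2 and Tyms under 8 and Lig1 under 7. Pold1, Pold2 and Tk1 passed under 6, and Pcna and Rfc3 under 5. The median count of the genes that rose was above that of those that did not pass. The 20 that rose had a median of 3014 counts summed over the libraries and a median SE of 0.0969, the 19 others 1043 counts and 0.156. Of those 19, 13 had an unadjusted p under 0.05, and the 6 others were Rfc1, Rfc5, Gins3, Gins4, Pola1 and Rpa3. Of the matched genes, 8 of the 12 with an E2F word rose, and 10 of the 19 without one. Counting did not state a strand setting, and 11 of the 39 genes share exon sequence with a gene on the other strand in GENCODE M21, among them Mcm7, Cdc45, Pole, Lig1 and Tk1 of those that rose, so some of their reads may belong to the partner. Pcna and Tyms have named pseudogenes, and reads aligned to more than 1 place were left out of gene counts.

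DMBA was read without BPA (DMBA against control) and with it (BPA+DMBA against BPA), 2 pairs that share no library. Each pair is 1 library against another, so values carry a 95% counting interval and no test. In DMBA against control 18 of 39 genes (46.2%) were at least 1.5-fold higher with an interval excluding equality, against 8.87% of all genes, and 0 were lower, against 6.25% (15.1% in either direction). Past 2-fold there was 1, Gins1 (2-fold higher in 4.24% of all genes). The median log2 ratio was 0.58, close to 1.5-fold. In BPA+DMBA against BPA the median was 0.41 and 4 genes (10.3%) were past 1.5-fold, against 6.79% of all genes, with 0 lower, against 3.57% (10.4% in either direction), and 0 were past 2-fold, against 2.77%. That share is near the background, although the intervals of 31 of 39 genes (79.5%) lay above equality, against 24% of all genes, and 37 ratios were above 0, against 51.4%. The pair was also sensitive to scaling, with 10 genes past 1.5-fold when total counts alone were used and 7 when all libraries were thinned to the smallest. Rrm2, Prim1 and Cdc45 were past 1.5-fold in both pairs, which is 16.7% of the first list and 75.0% of the second. Rfc4 passed in the second only, at log2 ratios of 0.58 and 0.66. The ratio was larger without BPA for 30 of the 39 genes. It was larger with BPA for the other 9, against 48% of all genes.

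**Figure D3:**
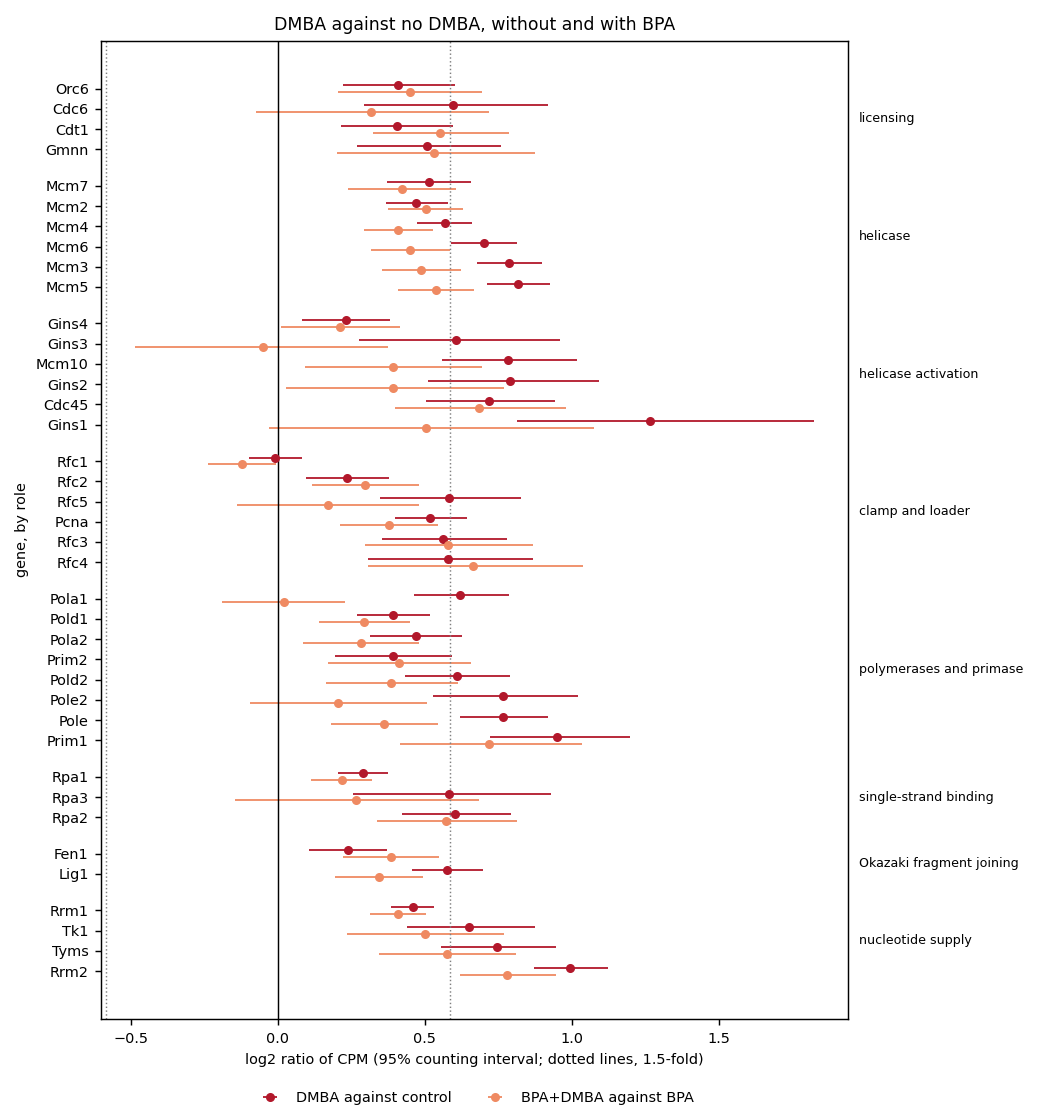
Log2 ratio of CPM with its 95% counting interval for each of the 39 replication genes, for DMBA against control (dark) and BPA+DMBA against BPA (light), grouped by role; dotted lines mark 1.5-fold. Points lie right of 0 except Rfc1 in both pairs and Gins3 in the second, and 18 dark and 4 light points are past 1.5-fold with intervals that exclude 0.

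Cell type markers, those of the labelled basal cells included, also moved with DMBA, beside the replication genes. By the same call 6.67% of all genes rose and 7.72% fell. Of 12 basal markers 8 rose and 0 fell, with summed levels of 1646 and 1850 CPM in the unexposed and 3777 and 3191 CPM in the exposed libraries (control, BPA, DMBA, BPA+DMBA). Of 9 kept squamous markers 7 rose and 0 fell (51.5, 63.5, 332 and 259 CPM for all 10), and of 12 luminal markers 0 rose and 4 fell (5076, 5566, 4760 and 4716 CPM). Of 9 endothelial markers 5 rose and 0 fell (35.5, 50.1, 90.6 and 90.1 CPM). Of 9 fibroblast markers 1 rose (11.1%, not far from the share of all genes) and 0 fell. Their sum was 9993, 7404, 5989 and 9926 CPM, in the opposite order in the 2 pairs. Of 8 immune markers 3 were kept and 1 rose (23.4, 28.5, 25.0 and 28.6 CPM). A gene at 0 counts was found once each in control and DMBA among the immune markers and once in BPA among the squamous markers. Their part in the change of the replication genes was not tested.

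Other genes of the pathway came from a list of 48 outside the 39. Of these 48, 12 rose (25.0%), 1 fell and 35 did not pass, with a median log2 change of 0.29. Over all genes 6.67% rose and 7.72% fell. Among the highest were Dscc1, a subunit of an alternative clamp loader (log2 0.91, SE 0.298, adjusted p = 0.0935, not passing at 31, 28, 58 and 41 counts), and Shmt1, a folate enzyme of thymidylate synthesis (log2 0.84, SE 0.151, adjusted p = 0.0194). The lowest were Orc3, an origin recognition subunit, which fell by 0.32 (SE 0.0833, adjusted p = 0.0481), and Rrm2b, the p53-inducible ribonucleotide reductase subunit (log2 -0.23, SE 0.106, adjusted p = 0.202). Within the origin recognition complex Orc1 rose (log2 0.80, SE 0.178, adjusted p = 0.0330) while Orc3 fell. None of 4 polymerase accessory subunits or 4 primer removal genes passed.

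Among 19 regulators of S phase entry 5 rose (26.3%), 1 fell and 13 did not pass, with a median of 0.29. The shares over all genes were 6.67% higher and 7.72% lower. The highest were cyclin A2, Ccna2 (log2 0.84, SE 0.106, adjusted p = 0.00788), and E2f8, a repressive E2F factor (log2 0.80, SE 0.128, adjusted p = 0.0139). The lowest were Rb1, the retinoblastoma protein that restrains E2F, which fell by 0.96 (SE 0.127, adjusted p = 0.00935), and Cdkn2a, a locus of cell cycle inhibitors (log2 -0.41, SE 0.206, adjusted p = 0.232). Rb1 was at 116 CPM in control, 91.3 in the BPA library, 49.7 in DMBA and 56.5 in BPA+DMBA, lowest in the exposed libraries. All 20 mitotic markers rose, by 0.41 to 0.87 with a median of 0.73, a larger median than that of the replication genes. The highest mitotic markers were Ccnb1 (0.87) and Plk1 (0.86), the lowest Cenpf (0.41) and Mki67 (0.43). No test was made of the difference between the lists.

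**Figure D4:**
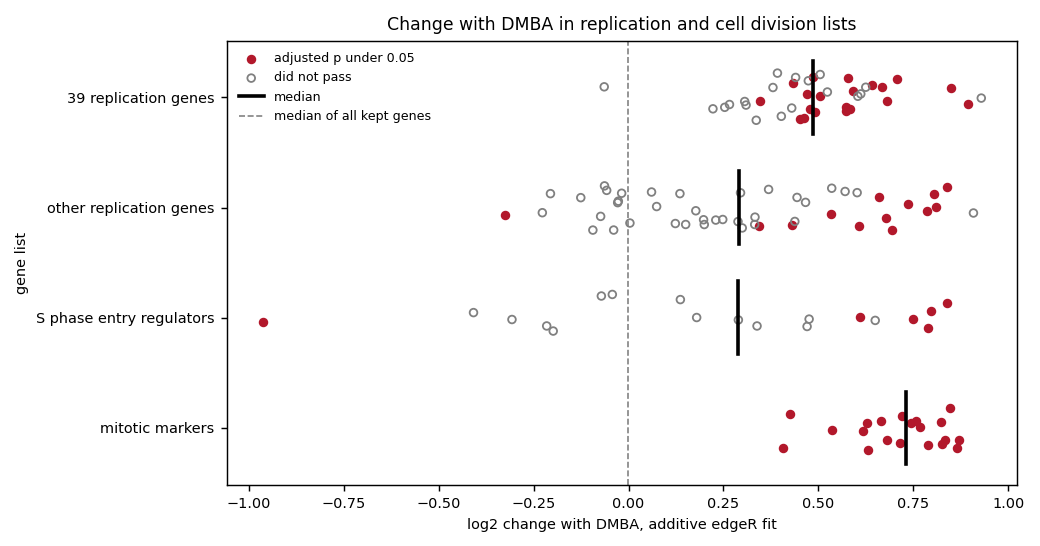
Log2 change with DMBA in the additive edgeR fit for each gene of 4 lists (39 replication genes, 48 other replication genes, 19 S phase entry regulators, 20 mitotic markers); filled points passed at an adjusted p under 0.05, thick bars are list medians and the dashed line is the median of all genes. Medians are 0.49, 0.29, 0.29 and 0.73, and all 20 mitotic markers are filled.

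The BPA comparison asks whether exposure around puberty changed these genes, read without DMBA (BPA against control) and with it (BPA+DMBA against DMBA). Over both backgrounds 0 of 39 genes passed, as did 0% of all genes by edgeR, and DESeq2 also called 0 of the 39. At an unadjusted p under 0.05 there were again 0 of 39, against 2.23% of all genes. The median log2 change was 0.06, from -0.17 for Gmnn to 0.31 for Gins1.
The pairs differed in direction. In BPA against control 29 of 39 ratios (74.4%) were above 0, against 52.1% of all genes, and 14 had intervals above equality (35.9%, against 16.4%) with 0 below (against 12.8%). The median was 0.14, about 1.10-fold. The 14 were Mcm2 to Mcm6, Gins1, Gins3, Rfc1, Pola1, Pole, Pole2, Rpa1, Lig1 and Tyms. Only Gins1 was past 1.5-fold (2.56%, against 1.14% of all genes higher, 1.69% lower and 2.82% either way), at 1.65 CPM in control and 2.77 in BPA (log2 ratio 0.72, interval 0.16 to 1.34), and it was not past it after thinning. Gmnn had the lowest ratio, -0.18 (interval -0.50 to 0.13).
In BPA+DMBA against DMBA the median was -0.04, 0 genes were past 1.5-fold (against 2.27% of all genes higher, 1.85% lower and 4.11% either way), and 13 of 39 ratios were above 0, against 49.8% of all genes. Intervals lay above equality for 3 genes, against 17.6% of all genes, and below it for 4, against 15.1%. Cdt1 had the highest ratio, 0.25 (interval 0.05 to 0.45), and its interval lay above equality together with those of Mcm2 and Fen1. Pola1 had the lowest, -0.33 (interval -0.52 to -0.15), and its interval lay below equality together with those of Mcm10, Pcna and Rrm2. Mcm2, with log2 ratios of 0.16 and 0.19, was the 1 gene whose interval lay above equality in both BPA pairs.

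**Figure D5:**
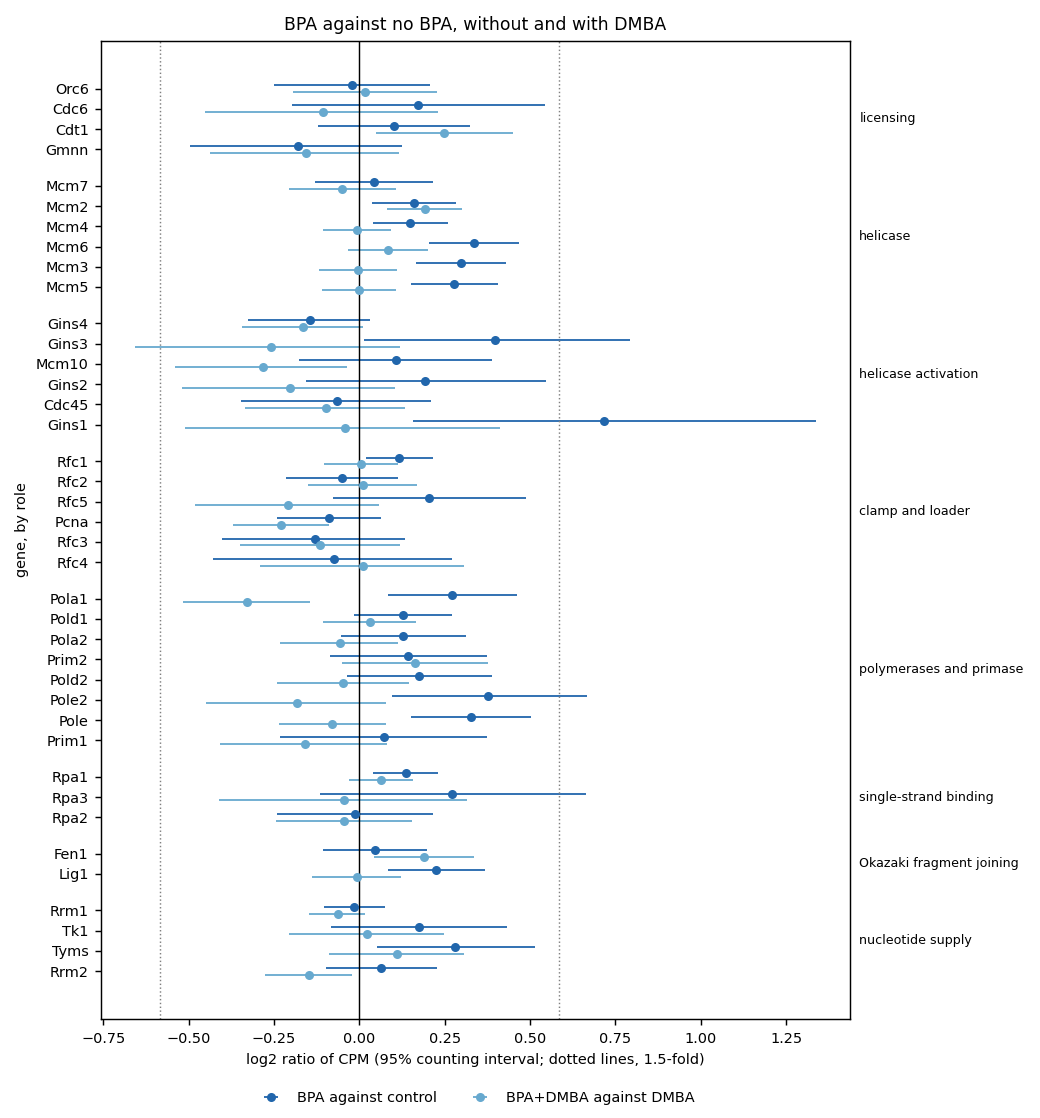
Log2 ratio of CPM with its 95% counting interval for each of the 39 replication genes, for BPA against control (dark) and BPA+DMBA against DMBA (light), grouped by role; dotted lines mark 1.5-fold. Values crowd around 0, Gins1 is the single point past 1.5-fold, and 29 dark points but 13 light points are right of 0.

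Whether the BPA ratio of a gene was the same with DMBA as without it was read as the departure from additivity. It is the second BPA log2 ratio minus the first, with a counting interval from the 4 libraries. The median was -0.16 (-0.01 over all genes). Intervals lay below 0 for 13 of 39 genes (33.3%, against 16.8% of all genes) and above 0 for 0 (against 15.8%). Pola1 (-0.60, interval -0.86 to -0.34), Gins3 (-0.66, interval -1.19 to -0.13) and Gins1 (-0.76, interval -1.47 to -0.05) were past 1.5-fold, all downward, which is 7.69% of the 39 against 3.08% of all genes lower, 4.83% higher and 7.91% either way. At 2-fold there were 0 in either direction, against 156 of all 13638 genes lower and 1.72% higher. For Pola1 and Gins3 the DMBA library stood highest and the BPA+DMBA library was close to the BPA library. For Gins1 the control library stood lowest. Cdt1 had the highest value, 0.15 (interval -0.15 to 0.44). All 20 mitotic markers also had values below 0, with a median of -0.29, while 48% of all genes had values above 0. Intervals lay below 0 for 14 of the 20, against 16.8% of all genes. These genes share the same 4 libraries, so their values are not independent.

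The combined exposure against control, which shares its control library with 2 of the pairs above, had a median log2 ratio of 0.55. In it 14 of 39 genes (35.9%) were at least 1.5-fold higher, against 7.32% of all genes, and 0 were lower, against 4.33%. Gins1 alone was past 2-fold, against 2.98% of all genes. Intervals lay above equality for 36 genes, against 26.2% of all genes, and 38 ratios were above 0, against 50.7%. Gins1 was highest at 1.22 and Rfc1 lowest at -0.0044.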

How the data were processed

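RNA-seq of 4 libraries was used, 1 for each of control, BPA, DMBA and BPA+DMBA. The deposited values are raw counts of reads for each gene symbol, followed by 5 summary entries. Per the submitters' processing notes, CASAVA 1.8.2, HTSeq, DESeq and build mm9 were used. No source used here gives their roles, the aligner or the strandedness of counting. The 5 entries entered neither library sizes nor tests. Of the counts in each library, 11.3% to 13.5% lay outside genes, 22.9% to 25.6% aligned to more than 1 place and 0.435% to 0.449% were ambiguous.

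Genes with at least 20 counts in 1 library (13638) were scaled by TMM (factors 0.969 to 1.05) and tested with edgeR 4.0.16 in R 4.3.3, in an additive model of BPA and DMBA. SE is the log2 change divided by the square root of F. Pairs used a prior count of 2 and exact Clopper-Pearson intervals, departures a normal interval. These, and a floor of 3 counts for a gene at 0 (0.098 to 0.191 CPM), cover counting error only. Transcript lengths (GENCODE M21, GRCm38) matched 98.1% of genes. Alternatives used DESeq2 1.42.0, other scaling, filters, thinning, length offsets and left-out libraries. The edgeR, DESeq2 and length-offset fits and the pair rule were tested on simulated data.

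The members, lists and tests were chosen with earlier results of these data known. Full values are given for the highest and lowest member of each role group, every member that did not pass for DMBA, and the extremes of each BPA pair and of departure. For other lists the 2 highest and 2 lowest genes were taken. Genes named beyond this rule (Rfc3, Pole, Pold1, Pold2, Tyms, Tk1 and Orc1 among them) were chosen to complete a role group or after their values were seen. Ticrr is counted under the older symbol 5730590G19Rik.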

Additional observations from a re-analysis of the deposited data

Results flagged for a closer look

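Pola1, the catalytic subunit of polymerase alpha, was higher in BPA than in control (log2 ratio 0.27) and lower in BPA+DMBA than in DMBA (-0.33), both with counting intervals that exclude equality. The 2 BPA effects go opposite ways, a departure of -0.60. It was the 1 gene of the 39 with this pattern, each pair is 1 library against another, and the difference was not tested against replicates.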

How the results depend on the processing

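The number of replication genes higher with DMBA (20) became 4 with DESeq2 and 13 with the length trend removed. With DMBA as the only term it was 26, and with 1 library left out of that fit it ran from 8 (without control) to 27 (without BPA+DMBA). Over all genes tested, 1962 passed, 675 with DESeq2, 906 with the length trend removed and 969 to 2729 with 1 library left out. Log2 ratios followed transcript length across genes (Spearman -0.294 in DMBA against control), and total counts alone raised the median ratio of all genes there from -0.01 to 0.10. At 2-fold in place of 1.5-fold, the genes past the fold were 1 in DMBA against control, 0 in BPA+DMBA against BPA, 0 in BPA against control, 1 in BPA+DMBA against control and 0 for departure. Total counts gave 10 and thinning 7 in BPA+DMBA against BPA, where the main count was 4, and thinning gave 0 in BPA against control. Rfc1 (log2 -0.06) reversed to 0.0206 with total counts and 0.0209 with the length trend removed, without passing. The cause of these moves was not tested. The numbers of genes lower with DMBA (0) and passing for BPA (0) and the pair medians kept their direction in every setting run. No paired analysis was possible because each group has 1 library and the labels give no replicate numbers. The 19 genes that did not pass had a median of 1043 counts over the libraries, and thinning to the smallest library gave 19 genes higher.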
